A study of Rattus norvegicus with 12 samples.

Results

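Voltage-gated and related ion channels were examined in mixed glial cultures of newborn rat brain exposed for 6 h to 1 of 3 cytokine mixtures. Members were the genes whose platform symbol begins with Kcn (potassium channels), Scn and a digit (sodium channels), Cacn (calcium channels), Clcn (chloride channels), Trpc, Trpv or Trpm (transient receptor potential channels) or P2rx (ATP-gated P2X channels). The Hcn pacemaker channels were part of the rule, but no probe set with a single symbol belonged to them. In all, 147 probe sets for 93 genes qualified, out of 4736 genes with a probe set of a single symbol. Each gene is described by its brightest probe set over the 12 arrays unless another is named, and 36 of the 93 genes had more than 1. The 93 genes were 27 pore-forming voltage-gated potassium channel genes, 15 inward rectifiers, 9 pore-forming sodium channel genes, 8 pore-forming calcium channel genes, 7 P2X genes, 6 auxiliary calcium channel genes, 5 chloride channel genes, 5 auxiliary potassium channel genes, 4 calcium- or sodium-activated potassium channel genes, 3 transient receptor potential genes, 3 two-pore potassium channel genes and 1 auxiliary sodium channel gene.

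The study had 3 separate culture experiments, each with 4 arrays hybridised with RNA of control cultures and of cultures given Th1, monocyte/macrophage (M/M) or Th2 cytokines. The Th1 mixture held IL-2, IFN-g, TNF-a and G-CSF, the M/M mixture held IL1a, IL1b, IL-12p40 and TNF-a, and the Th2 mixture held porcine TGF-b1, G-CSF, IL-5 and IL-10, while control cultures received medium. Every cytokine was used at 10 ng/ml, on cultures kept for 6 to 8 days in a defined medium that held 2% serum. The methods add IL-6 to the M/M mixture and IL-4 to the Th2 mixture, which the labels do not. The cultures are described as oligodendrocytes, astrocytes, microglia and their precursors in a serum-poor defined medium, with no neurons, and the number of animals behind each culture is not given in the sources used here. A bulk culture cannot separate fewer cells of a type from less RNA per cell.

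Ion channels of glia are studied for their part in clearing potassium from the space around axons, in setting the membrane potential, in calcium entry and in the response of microglia to ATP. The inward rectifier Kcnj10 is the best known potassium channel of astrocytes and oligodendrocytes, where it pairs with Kcnj16. Microglia are known for the voltage-gated channels Kcna3 and Kcna5 and the ATP receptors P2rx4 and P2rx7. Most pore-forming sodium and calcium channels are better known from neurons and muscle, where they carry the action potential and couple it to release or contraction. The question put to the arrays was which of these genes were measurable in the cultures and whether any of the mixtures changed them.

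Several arrays stood apart, and the values of the channel genes rest on them. The median signal per array ran from 24.5 to 61, with experiment 3 lowest (26.9 in control, 24.5 in Th1, 42.2 in M/M and 29.1 in Th2 arrays). In experiment 3 the response of cytokine-induced genes was ordered otherwise over the labels than in experiments 1 and 2. Signal of Irf1, a gene that interferon-gamma induces, was 325, 93.8 and 153 in control arrays, 2850, 1761 and 116 in the arrays labelled Th1, 1188, 381 and 4575 in those labelled M/M and 256, 74.2 and 373 in those labelled Th2, in the order of the experiments. Irf1 was thus highest in the Th1 arrays of experiments 1 and 2 and in the M/M array of experiment 3, where the Th1 array was below control. Il1b, the interleukin-1 beta gene, gave 98.5, 26.9 and 53.4 in control arrays, 1347, 753 and 110.3 in the arrays labelled Th1, 2544, 1145 and 791 in those labelled M/M and 97.6, 48.3 and 2145 in those labelled Th2. Il1b was highest in the M/M arrays of experiments 1 and 2 and in the Th2 array of experiment 3. The M/M array exceeded the control array for Irf1 and Il1b in all 3 experiments. Cxcl10 and Icam1 were read as well. In experiment 3 Cxcl10 gave 181 in the control, 23.8 in the Th1, 5626 in the M/M and 744 in the Th2 array. Icam1 gave 397, 321, 3120 and 1811 there in the same order. In experiments 1 and 2 Cxcl10 was highest in the Th1 arrays. Icam1 gave there 471 and 184 in Th2 arrays against 410 and 171 in control arrays. All these genes were chosen after their values were seen, and arrays were kept in the groups of their labels. Most changes of single channel genes are also given with experiments 1 and 2 alone. The subfamily, screening, partner and marker results rest mostly on all 3 experiments as labelled. The control array of experiment 2 also stood apart from the others.

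For 67 of the 93 channel genes (72.0%) the control array of experiment 2 held the highest or the lowest signal of the 8 arrays of experiments 1 and 2, being highest for 25 and lowest for 42. The other 7 arrays did so for 12 to 20 channel genes each. Over all 4736 genes the same array was at an end of the range for 63.9%, and the other arrays for 15.6% to 21.5%. The voltage-gated calcium channel gene Cacna1g is an example, at 13.3 in that array against 43.9 to 54.8 in the other 7 arrays of both experiments. Every comparison of a mixture with control in experiment 2 uses that array.

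**Figure D1:**
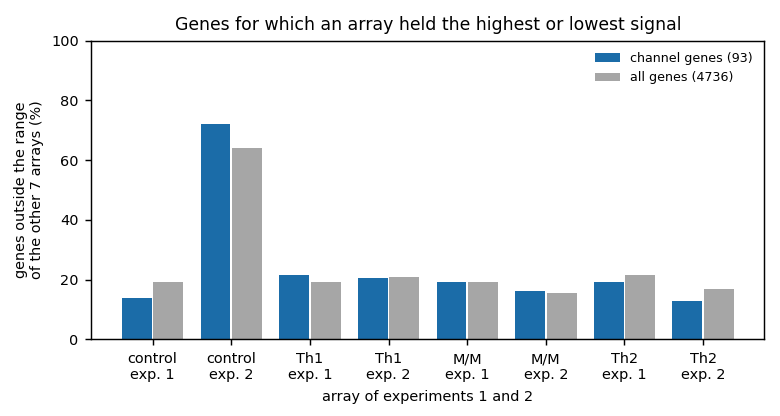
Percentage of the 93 channel genes (blue) and of all 4736 genes (grey) for which each of the 8 arrays of experiments 1 and 2 held a signal outside the range of the other 7. The control array of experiment 2 reached 72.0% of channel genes and the other arrays 12.9% to 21.5%.

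Channel genes were mostly dim in the control cultures. Signals of 13 of the 93 genes (14.0%) lay above the median of the array in all 3 control arrays, 23 did so in 1 or 2 of them and 57 in none, whereas 2231 of all 4736 genes (47.1%) did so in all 3. The share of channel genes above the array median was 21.5%, 34.4% and 22.6% in the control arrays of experiments 1, 2 and 3 (mean 26.2% ± 7.16 SD, n = 3), compared with a mean of 57.1% of all genes. A mean of 2.15% of the channel genes lay above the 75th percentile of the array. Probe sets differ in how well they hybridise, so a place in an array does not rank the transcripts of different genes, and no detection calls were used.

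The 13 genes spread over 9 of the 12 subfamilies. They were Kcnh3 and Kcnh2 of the 27 voltage-gated potassium channel genes, Kcnj1 of the 15 inward rectifiers, Scn7a of the 9 sodium channel genes, Cacna1a and Cacna1c of the 8 calcium channel genes, Cacnb3 of the 6 auxiliary calcium channel genes, Clcn3 and Clcn4 of the 5 chloride channel genes, Kcnab2 of the 5 auxiliary potassium channel genes, Trpc1 of the 3 transient receptor potential genes, and P2rx2 and P2rx4 of the 7 P2X genes. None of the two-pore, calcium- or sodium-activated and auxiliary sodium channel genes was among them.

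**Figure D2:**
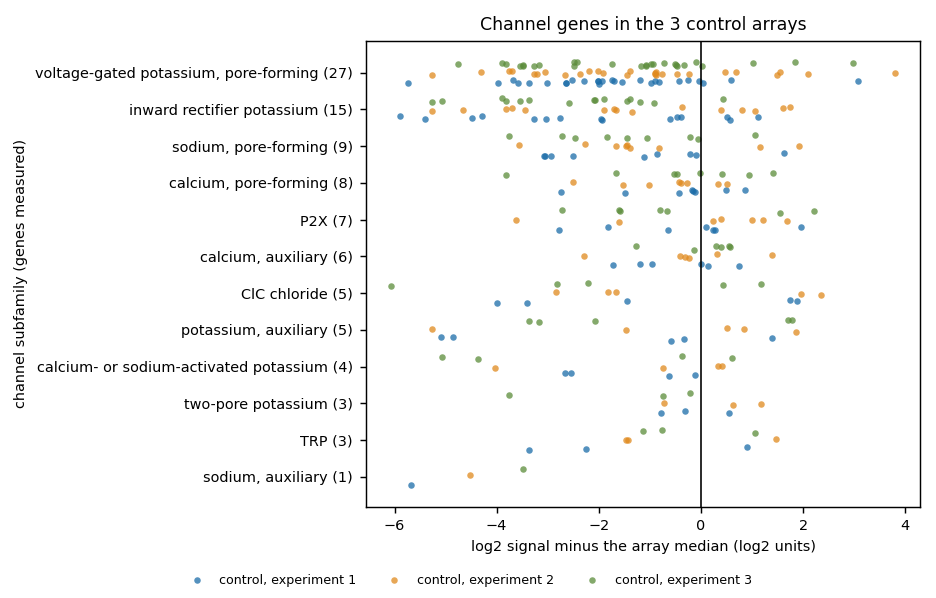
log2 signal of each channel gene minus the median of its array (x axis, log2 units) in the 3 control arrays, by subfamily with the number of genes measured. Most points lie to the left of the array median at 0, and 13 of the 93 genes lie to the right of it in all 3 arrays.

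Among voltage-gated potassium channels, Kcnh3, of the ether-a-go-go family, had the highest position of any member, with control signals of 498, 536 and 212. The Th1 arrays gave 579, 496 and 159, the M/M arrays 559.7, 523 and 359 and the Th2 arrays 541, 554 and 188. In experiments 1 and 2 the 8 values lay close together, and the spread of the gene came from experiment 3. Kcnh2, the channel of the rapid delayed rectifier current of the heart, gave 89.1, 163 and 95.8 in control cultures and 56.0, 84.6 and 88.8 with Th2 cytokines. Every Th2 array was below every control array for Kcnh2, with a change of -0.58 on the log2 scale (SE 0.29) that did not pass the test (adjusted p = 0.717 by limma). With experiments 1 and 2 alone the change was -0.81 (SE 0.26, adjusted p = 0.611 by limma). The control array of experiment 2, at 163, lay above all other arrays of experiments 1 and 2, which gave 56.0 to 92.2. The Shaker-type channels known from microglia were dim: Kcna3 gave 15.5, 27.9 and 3.0 and Kcna5 gave 25.8, 7.42 and 19.4 in control arrays, below the array median in all 12 arrays. Of the 27 genes of the subfamily, 21 were above the median of no control array.

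Among inward rectifiers, the glial channel Kcnj10 gave 87.7, 129 and 4.50 in control cultures. It gave 49.3, 101 and 5.90 with Th1, 70.2, 101 and 10.0 with M/M and 49.0, 72.3 and 6.10 with Th2 cytokines. In experiments 1 and 2 each treated array was below the control array of its experiment, and in experiment 3 each was above it, at a level of 10.0 or less on all 4 arrays. With all experiments the change was -0.26 for Th1, -0.41 for Th2 and 0.16 for M/M cytokines (SE 0.37 each), with adjusted p of 0.923, 0.812 and 0.856 by limma. With experiments 1 and 2 alone it was -0.59, -0.84 and -0.34 (SE 0.24 each), and adjusted p was 0.561, 0.611 and 0.552 by limma. The other Kcnj10 probe set had the same signs as the first with all experiments, but with experiments 1 and 2 alone it had the opposite ones, at 0.35, 0.34 and 0.63 (SE 0.37 each). Its partner Kcnj16 was dim, at 15.2, 11.8 and 10.3 in control arrays, and so was Kcnj2, a strong inward rectifier, at 3.01, 15.0 and 2.60.

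Kcnj1, best known from the kidney tubule, was the inward rectifier above the median of all 3 control arrays, with signals of 128, 80.2 and 36.3. With M/M cytokines it gave 162, 138 and 69.1, higher in 3 of 3 experiments, a change of 0.68 (SE 0.32, adjusted p = 0.313 by limma). With the arrays centred on their medians that change was 0.26, and with experiments 1 and 2 alone it was 0.56. Kcnj14 gave 6.14, 3.54 and 7.2 in control cultures and 11, 10.8 and 18.2 with M/M cytokines, and the groups did not overlap. Its change was 1.26 (SE 0.46, adjusted p = 0.243 by limma) with M/M and 1.09 (SE 0.46, adjusted p = 0.717) with Th2 cytokines, and 1.22 in both cases with experiments 1 and 2 alone. Kcnj6, a G protein-gated channel, had the lowest p of any member in the M/M comparison, with 1.39, 2.96 and 0.80 in control and 4.36, 9.84 and 2.60 in M/M arrays, a change of 1.69 (SE 0.49, adjusted p = 0.167 by limma) that was also 1.69 with experiments 1 and 2 alone. Both genes were below the array median on all 12 arrays.

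Of the two-pore potassium channels, which give a resting leak current, Kcnk5 gave 86.8, 87.0 and 23.3 in control cultures and 82.2 to 97.7 in the treated arrays of experiments 1 and 2. Its changes were between -0.04 and 0.16 (SE 0.26) over the 3 mixtures. Kcnk1 gave 34.6, 23.3 and 16 in control arrays and was above the median of none of the 12. The calcium-activated channel Kcnma1, opened by both voltage and calcium, gave 38.4, 50.8 and 20.7 in control arrays, and the small-conductance channels Kcnn1 and Kcnn3 gave 54.2, 48.5 and 41.1, and 9.36, 2.35 and 1.30. Kcnn1 was higher in all M/M arrays (74.8, 62.7 and 66.9) than in all control arrays, by 0.51 (SE 0.29, adjusted p = 0.394 by limma) by 0.09 with arrays centred and by 0.42 with experiments 1 and 2 alone. Among auxiliary subunits, Kcnab2, which binds Shaker-type channels, gave 155, 139 and 87.7 in control arrays and changed by -0.15, -0.03 and 0.05 (SE 0.23) in the Th1, M/M and Th2 comparisons. Kcnmb1, a partner of Kcnma1, gave 46.8, 68.6 and 93.1 in control arrays.

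Scn7a, an atypical sodium channel that senses the sodium level of body fluid, was the sodium channel gene above the median of every array, with 183, 146 and 56.0 in control cultures. It gave 173, 168 and 40.4 with Th1, 199, 210.0 and 100.2 with M/M and 181, 158 and 50.6 with Th2 cytokines. The M/M array was highest in each of the 3 experiments, but the change of 0.49 (SE 0.26, adjusted p = 0.365 by limma) became 0.07 with arrays centred and 0.32 with experiments 1 and 2 alone. The other 8 pore-forming sodium channel genes, those of brain, muscle and sensory neurons, were above the array median in no more than 1 control array each. The brain channel genes Scn1a, Scn2a and Scn3a gave control signals of 10.5, 7.95 and 4.90, of 7.04, 3.27 and 4.10, and of 7.14, 12.2 and 23.2. The auxiliary gene Scn2b lay between 1.0 and 2.6 on the 12 arrays.

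Cacna1c, the pore of L-type calcium channels, gave 107, 48.7 and 36.0 in control cultures and 133, 123 and 62.3 with M/M cytokines. All 3 experiments showed it higher with M/M cytokines, by 0.81 (SE 0.31, adjusted p = 0.255 by limma), by 0.39 with arrays centred and by 0.82 with experiments 1 and 2 alone. Cacna1d, another L-type pore, was dim, and it was the member for which the arrays of each mixture lay above all control arrays. It gave 8.82, 6.75 and 8.50 in control arrays, 10.2, 11.7 and 10.0 with Th1, 12.8, 16.9 and 12.5 with M/M and 16, 13.9 and 13.5 with Th2 cytokines. The changes were 0.41, 0.81 and 0.86 (SE 0.40 each), with adjusted p of 0.890, 0.340 and 0.717 by limma, and were 0.25, 0.38 and 0.64 with arrays centred and 0.50, 0.93 and 0.95 with experiments 1 and 2 alone. The other 4 probe sets of Cacna1d ran from -0.57 to 0.69 with Th1 cytokines, and not all of them shared its sign. Cacna1a, the pore of P/Q-type channels, gave 83.1, 55.0 and 71.6 in control arrays and changed by 0.24, 0.28 and -0.09 (SE 0.30). The auxiliary genes Cacnb3 and Cacna2d1 gave 99.7, 101 and 39.2, and 59.0, 47.7 and 24.6 in control arrays.

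Clcn3 and Clcn4, chloride-proton exchangers of endosomes, were above the median of all 12 arrays. Clcn3 gave 197, 149 and 61.1 in control cultures, 152, 324 and 75.5 with Th1, 199, 252 and 107 with M/M and 219, 245 and 95.5 with Th2 cytokines. In each experiment the M/M and Th2 arrays were above the control array, by 0.53 (SE 0.28, adjusted p = 0.359 by limma) and 0.50 (SE 0.28, adjusted p = 0.727), and the changes were 0.10 and 0.29 with arrays centred and 0.39 and 0.43 with experiments 1 and 2 alone. Trpc1, a cation channel linked to store-operated calcium entry, gave 111, 107 and 56.2 in control arrays and 86.1, 105 and 47.7 with Th2 cytokines. In each experiment its Th2 array was the lowest of the 4. Its other probe set did not share the sign in the M/M and Th2 comparisons. Trpv1, the capsaicin receptor, gave 12.4, 14.3 and 12.2 in control arrays and 4.05, 7.48 and 14.6 with M/M cytokines. Its change with M/M cytokines was -0.76, lower in experiments 1 and 2 and higher in experiment 3. A fit of experiments 1 and 2 alone with arrays centred gave it an adjusted p of 0.119 by limma. That was the lowest of the 93 genes for M/M cytokines against control.

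P2rx4, the ATP-gated channel of activated microglia, gave 229, 123 and 125 in control cultures (mean 159 ± 61 SD, n = 3). It gave 246, 316 and 138 with Th1, 229, 259 and 258 with M/M and 315, 287 and 146 with Th2 cytokines. All treated arrays were above the control array of their experiment except the M/M array of experiment 1, which matched it. The changes were 0.53, 0.71 and 0.63 (SE 0.30 each), with adjusted p of 0.857, 0.284 and 0.717 by limma, and 0.38, 0.28 and 0.42 with arrays centred. With experiments 1 and 2 alone they were 0.73, 0.54 and 0.84 (SE 0.32 each), with adjusted p of 0.566, 0.498 and 0.611 by limma. The control array of experiment 2 gave the lowest P2rx4 signal of all 12 arrays. P2rx7, the receptor for high ATP, gave 71.8, 45.4 and 9.0 in control arrays and 72.6, 50.2 and 3.30 with M/M cytokines, a change of -0.43 (SE 0.40, adjusted p = 0.609 by limma). The sign of that change rested on experiment 3, and with experiments 1 and 2 alone it was 0.08 (SE 0.28, adjusted p = 0.914).

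**Figure D3:**
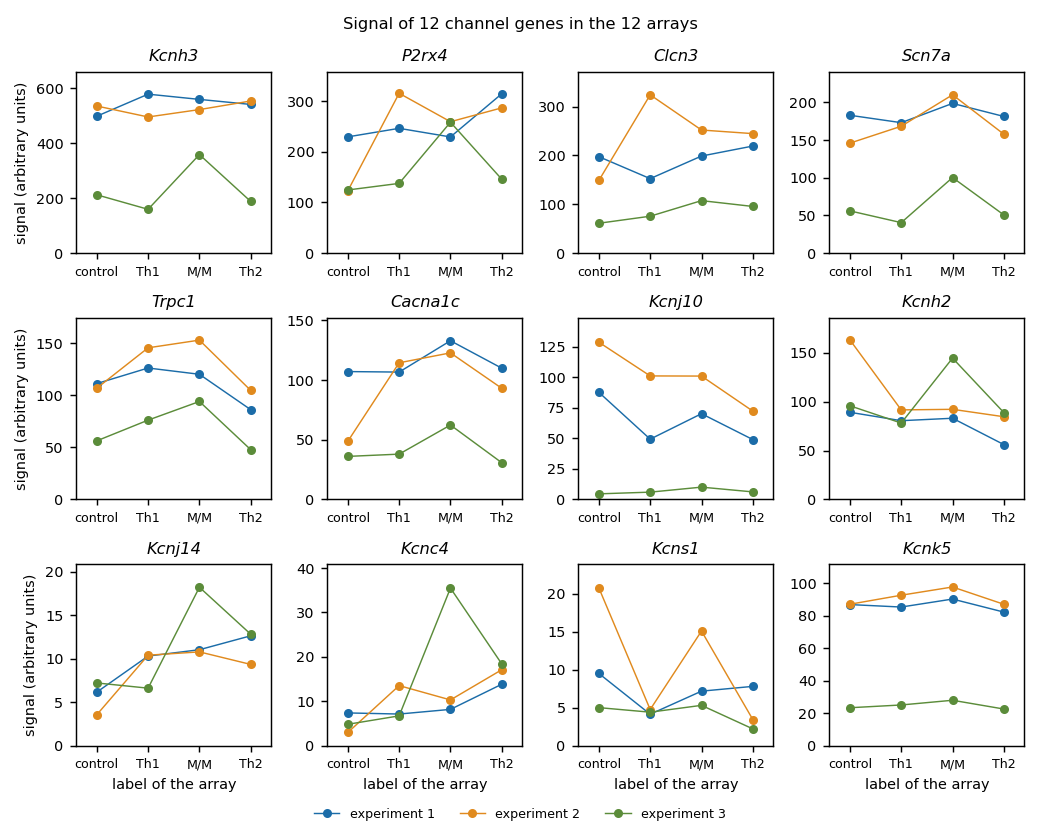
Signal (arbitrary units, linear axis from 0) of 12 channel genes on the 12 arrays, with a line for each experiment. Signals of experiment 3 lie below those of experiments 1 and 2 for Kcnh3, Clcn3, Scn7a, Kcnj10 and Kcnk5. They overlap for the other genes shown. Kcnj10 stays at 10.0 or less on the 4 arrays of experiment 3, against 49.0 to 129 in experiments 1 and 2.

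No channel gene passed the test in any of the 6 comparisons. With all 3 experiments, limma with a block for the experiment called 0 of the 147 channel probe sets at an adjusted p under 0.05 in the 3 comparisons with control and in the 3 between mixtures. It called 0.263% of all 8740 probe sets for M/M against control, 0.0114% for Th2 against control and 0.0% in the other 4 comparisons. With experiments 1 and 2 alone 0.664% of all probe sets were called for Th1 against control and 0.389% for M/M against control, and again 0 of the 147 channel probe sets in each comparison. In that fit 0.469% of all probe sets were called between Th2 and Th1 cytokines and 0.263% between M/M and Th2 cytokines, and the lowest adjusted p between mixtures was 0.105 over the 147 channel probe sets, that of a dimmer Cacna1a probe set, and 0.889 over the brightest probe sets of the 93 genes, that of Trpc1. The Th1 signals of that Cacna1a probe set lay near the lowest on their arrays.

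At an unadjusted p under 0.05, 9 of the 93 genes were higher with M/M cytokines and 0 were lower, beside 15.3% and 0.57% of all genes. The 9 were Kcnj6, Kcnj14, Kcnj13, Kcnj1, Kcnc4, Kcnv1, Kcnh5, Cacna1c and P2rx4, of which 6 were below the array median on all 12 arrays. For Th2 cytokines 4 genes were higher (Kcnc4, Kcnj14, Kcnv1 and Clcn5) and 1 lower (Kcns1), beside 6.23% and 0.486% of all genes. For Th1 cytokines 0 genes were higher or lower, beside 4.75% and 0.76%. With the arrays centred 4 genes were higher and 2 lower for M/M cytokines, beside 5.17% and 9.21% of all genes. In that fit 3 were higher and 7 lower for Th2, beside 4.35% and 3.55%, and 0 higher and 1 lower for Th1 cytokines, beside 3.53% and 3.38%.

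The same count was taken with experiments 1 and 2 alone. For Th1 cytokines 4 genes were then higher and 2 lower, beside 7.94% and 1.37% of all genes, for M/M 7 and 2, beside 8.47% and 2.68%, and for Th2 4 and 2, beside 4.79% and 1.29%. With the arrays of these experiments centred as well, most of the genes counted were lower. The counts of higher and lower genes were then 2 and 4 for Th1, beside 5.74% and 6.95% of all genes, 2 and 8 for M/M, beside 5.55% and 13.7%, and 3 and 7 for Th2 cytokines, beside 4.52% and 6.82%. At an adjusted p under 0.05 that fit called 0 channel probe sets against control, beside 1.37% of all probe sets in the Th1 and M/M and 0.0% in the Th2 comparison. Between mixtures with all experiments, 1 channel gene was higher and 0 lower in M/M than in Th1 arrays at an unadjusted p under 0.05, beside 2.34% and 0.253% of all genes. In Th2 against Th1 arrays 0 were higher and 3 lower, beside 0.971% and 0.57%, and in M/M against Th2 arrays 2 were higher and 1 lower, beside 2.58% and 0.718%. With experiments 1 and 2 alone these counts were 0 and 2, beside 0.908% and 2.45%, 1 and 1, beside 1.44% and 4.12%, and 1 and 0, beside 3.29% and 1.82%.

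Kcnc4, a fast voltage-gated potassium channel, had the lowest p with Th2 cytokines. It gave 7.36, 2.95 and 4.80 in control cultures and 13.8, 17.1 and 18.4 with Th2 cytokines, a change of 1.79 (SE 0.59, adjusted p = 0.715 by limma), and in experiments 1 and 2 alone 1.72 (SE 0.59, adjusted p = 0.611). It also gave 8.16, 10.3 and 35.5 with M/M cytokines, a change of 1.61 (SE 0.59, adjusted p = 0.243 by limma), or 0.98 with experiments 1 and 2 alone. Kcns1, a subunit that is silent alone and modifies other voltage-gated potassium channels, gave 9.50, 20.8 and 5.00 in control arrays, 4.13, 4.75 and 4.40 with Th1 and 7.80, 3.43 and 2.20 with Th2 cytokines. It was lower in 3 of 3 experiments with both mixtures, with changes of -1.17 and -1.36 (SE 0.56 each, adjusted p = 0.857 and 0.717 by limma), or -1.67 and -1.44 with experiments 1 and 2 alone. The control array of experiment 2 gave the highest Kcns1 signal of experiments 1 and 2, where the other arrays ran from 3.43 to 15.1. For Kcnc4 that array gave the lowest signal there, where the other arrays ran from 7.11 to 17.1.

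By the screening criteria of the methods, a mean change above 2-fold with an unadjusted analysis of variance p under 0.2, the counts differed from those of limma. The criteria were applied here to log2 signals of the brightest probe sets, so the counts need not match those of the authors' software. For M/M cytokines 6 of the 93 channel genes were higher (Kcnh5, Kcnj14, Kcnj6, Kcnc1, Kcnc4 and Kcnv1) and 0 lower, beside 5.7% and 0.317% of all genes. For Th2 cytokines 3 were higher (Kcnj14, Kcnc4 and Kcnv1) and 1 lower (Kcns1), beside 2.62% and 0.38% of all genes. For Th1 cytokines Kcnab3 was higher and Kcns1 lower, beside 1.77% and 0.612%. Between mixtures the criteria gave Kcnv1, higher in M/M than in Th1 arrays, beside 1.14% of all genes higher and 0.38% lower. They gave Kcnj5 higher and Kcnj3 lower in Th2 than in Th1 arrays, beside 0.929% and 0.443%, and Kcns1 higher in M/M than in Th2 arrays, beside 1.46% and 0.655%. The groups did not overlap for 7 channel genes higher with M/M cytokines, beside 7.58% of all genes, for 3 higher and 1 lower with Th2, beside 2.72% and 0.528%, and for 1 higher and 1 lower with Th1 cytokines, beside 1.58% and 0.739%.

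As a group the channel genes moved with the arrays. The median change over the 93 genes was 0.00 with the Th1, 0.32 with the M/M and 0.11 with the Th2 mixture, beside 0.13, 0.31 and 0.19 over all genes. With arrays centred the medians were -0.16, -0.11 and -0.10, beside -0.03, -0.12 and -0.02 over all genes, so the direction turned for M/M and Th2 cytokines. Within experiments 1, 2 and 3 the median for M/M cytokines was 0.01, 0.21 and 0.62, beside -0.02, 0.37 and 0.60 over all genes. With experiments 1 and 2 alone the medians of the channel genes were 0.19, 0.15 and 0.08 in the same order, beside 0.21, 0.16 and 0.19 over all genes. Centring turned all 3, to -0.12, -0.17 and -0.18, beside -0.09, -0.15 and -0.08 over all genes. Comparisons of the mixtures with control share their control arrays.

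**Figure D4:**
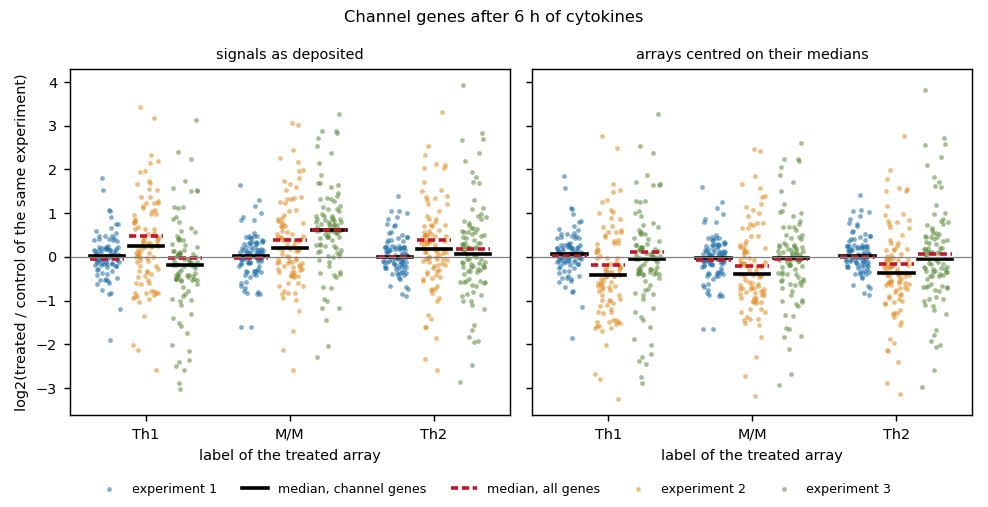
log2 ratio of each treated array to the control array of its experiment for the 93 channel genes (points), with the median of the channel genes (black) and of all 4736 genes (red, dashed), for signals as deposited (left) and arrays centred (right). The medians of channel genes with M/M cytokines run from 0.01 to 0.62 as deposited and lie below 0 after centring.

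Between mixtures in experiments 1 and 2, the changes of channel genes were near those of all genes in size or somewhat larger. The median size of the change, whatever its sign, was 0.17 between M/M and Th1, 0.20 between Th2 and Th1 and 0.25 between M/M and Th2 cytokines, beside 0.16, 0.18 and 0.19 over all genes. Against control the median size was 0.33 (Th1), 0.35 (M/M) and 0.30 (Th2), beside 0.31, 0.32 and 0.30 over all genes. The cause of the larger sizes against control was not tested. More than 2-fold differences between these pairs of mixtures were found for 4, 1 and 2 of the 93 genes, beside 3.59%, 4.98% and 5.13% of all genes. With all experiments an unadjusted p under 0.01 between mixtures was reached by dimmer probe sets of Cacna1a and Scn8a and by no other channel probe set. That of Cacna1a gave 2.34, 4.67 and 14.2 in control, 1.0, 1.02 and 2.50 in Th1, 3.77, 5.97 and 8.90 in M/M and 5.21, 9.66 and 5.30 in Th2 arrays. Its Th1 arrays were the lowest of their experiments, and the Th2 arrays exceeded them by 2.24 (SE 0.57, adjusted p = 1.0 by limma), and by 2.81 (SE 0.45, adjusted p = 0.105) in experiments 1 and 2 alone. On the Th1 arrays of experiments 1 and 2, 225 and 202 probe sets held a signal of exactly 1, and 2 and 0 held less. The Th1 signals of the Cacna1a probe set thus lay at the low end of the scale, and the size of these differences rests on them. The dimmer probe set of Scn8a, a sodium channel of axon initial segments and nodes, gave 5.91, 8.55 and 3.70 in control, 1.67, 1.94 and 3.4 in Th1, 8.09, 13 and 14.5 in M/M and 1.88, 1.83 and 13 in Th2 arrays. Its signals in experiments 1 and 2 lay below 2 with Th1 and Th2 cytokines and above 5 in the other arrays, at a level far under the array medians. In experiments 1 and 2 alone M/M arrays exceeded Th1 arrays by 2.51 (SE 0.42, adjusted p = 0.344 by limma) and Th2 arrays by 2.47 (SE 0.42, adjusted p = 0.202). Against control the change was -1.98 for Th1 (SE 0.42, adjusted p = 0.181 by limma) and -1.94 for Th2 cytokines (SE 0.42, adjusted p = 0.611), and the other Scn8a probe sets were also lower with Th1 but not all lower with Th2 cytokines over the 3 experiments.

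Subfamilies did not all move alike. With M/M cytokines their medians differed in sign, and some but not all stayed above 0 with arrays centred. All 8 pore-forming calcium channel genes had a change above 0 with M/M cytokines (median 0.59, from 0.28 to 0.81), and 6 of the 8 stayed above 0 with arrays centred (median 0.17). Of all 4736 genes 79.1% were above 0 in this comparison before centring and 39.4% after it. For all 8 calcium channel genes but Cacna1s, the control array of experiment 2 lay below the other 7 arrays of experiments 1 and 2. Cacna1s changed by -0.04 with M/M cytokines in experiments 1 and 2 alone. Of the 15 inward rectifiers 14 were above 0 with M/M cytokines (median 0.39), and 7 of the 15 with arrays centred (median -0.04). The 27 voltage-gated potassium channel genes had medians of -0.10 with Th1 and 0.16 with M/M cytokines, and -0.26 and -0.27 with arrays centred. The 7 P2X genes had a median of -0.24 with M/M cytokines, with P2rx3 highest at 1.27. P2rx3 gave 69.9, 50.4 and 4.1 in control and 73.2, 70.2 and 39.3 in M/M arrays, and its change was 0.27 with experiments 1 and 2 alone. None of these members passed the test.

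The experiment separated channel genes, like all genes, more than the mixture did. A median of 64.4% of the variation of a channel gene over the 12 arrays lay between experiments and 12.2% between mixtures, beside 59.4% and 12.2% over all genes. With arrays centred these medians were 51.2% and 15.0%, beside 57.9% and 13.7% over all genes. Signals of all 4 arrays of experiment 3 were below all 8 others for 35 of the 93 genes, beside 32.1% of all genes, and with arrays centred for 15, beside 13.5%. Kcnk3, an acid-sensitive two-pore potassium channel, was at 1.40 to 2.50 in experiment 3 and at 41.2 to 59.2 in the others. Kcnj15 was at 6.4 to 11.6 against 67.3 to 88.8, P2rx7 at 3.30 to 9.0 against 45.4 to 72.6 and Kcnj10 at 4.50 to 10.0 against 49.0 to 129. Relative to the array medians 13 channel genes were higher in experiment 3 without overlap, beside 19.9% of all genes, among them Scn3a, at 17.3 to 42.6 against 5.98 to 12.2.

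Probe sets of the same gene often disagreed. Of the 36 genes with more than 1 probe set, all probe sets shared the sign of the change for 17 in the Th1, 23 in the M/M and 15 in the Th2 comparison. P2rx2, an ATP-gated channel with 6 probe sets, ranged from -0.55 to 0.77 with Th1 cytokines. Those of Kcna6 were all above 0 with each mixture and those of Kcnab2 below 0 with Th1 and M/M cytokines. The arrays have probes for the 3′ part of each transcript, and splice forms and related genes that share sequence with a probe cannot be told apart.

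Genes that work with the channels were also read. Of 45 listed ion pumps, exchangers, cotransporters, intracellular calcium channels, water channels, kinases and anchoring proteins 36 were measured. Of the 36 genes 16 were above the median of all 3 control arrays, compared with 13 of the 93 channel genes and 47.1% of all genes. Limma called 0 of the 36 in each comparison of a mixture with control. At an unadjusted p under 0.05 the count was 2 of 36 in the Th1, 5 in the M/M and 2 in the Th2 comparison, in either direction. Of all genes 4.75% were higher and 0.76% lower with Th1, 15.3% and 0.57% with M/M and 6.23% and 0.486% with Th2 cytokines. The sodium-calcium exchanger gene Slc8a1 gave 283, 165 and 115 in control arrays and 357, 341 and 248 with M/M cytokines, a change of 0.83 (SE 0.37, adjusted p = 0.300 by limma). Aqp4, the water channel of astrocyte end feet, gave 154, 8.92 and 25.8 in control arrays and 195, 78.2 and 72.0 with M/M cytokines, by 1.65 (SE 0.52, adjusted p = 0.191). Its change was 1.08 with Th1 and 1.26 with Th2 cytokines (SE 0.52 each, adjusted p = 0.857 and 0.717 by limma). The control array of experiment 2 gave the lowest Aqp4 signal of all arrays. With arrays centred the M/M changes were 0.40 for Slc8a1 and 1.22 for Aqp4. The sodium-potassium-chloride cotransporter gene Slc12a2 was bright, at 1432, 3015 and 473 in control arrays, and its changes were -0.06 with Th1, -0.17 with Th2 and -0.18 with M/M cytokines (SE 0.17 each).

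Markers of the cell types were read beside the channels. All 7 oligodendrocyte markers measured, 7 of 9 microglia markers and 5 of 8 astrocyte markers were above the median of all 3 control arrays. So were 3 of 10 neuron markers (Gap43, Map2 and Gad1), 4 of 6 fibroblast markers, 0 of 4 endothelium markers and 0 of 7 muscle markers. The summed signal of the neuron markers was 665 to 1163 in control, 604 to 1222 in Th1, 967 to 1138 in M/M and 859 to 1196 in Th2 arrays. In control arrays Gap43 gave 367, 215 and 380, Map2 gave 366, 208 and 155, and Gad1 gave 161, 95.7 and 38.0. The neuronal markers Syt1 and Gad2 were at 12.7, 35.1 and 0.90, and at 11.4, 7.41 and 3.50 in control arrays. The summed signal of the microglia markers was 4082 to 8503 in control, 6045 to 10481 in Th1, 8253 to 11606 in M/M and 6191 to 8891 in Th2 arrays, and it included Cd14, the marker that limma called, which rose with M/M cytokines. The part of these markers in the values of P2rx4 or any other channel was not tested.

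Of the 93 genes, 70 had a RefSeq start region of 300 bases (250 before to 50 after the start, build GRCr8). CpG dinucleotides, the sites of DNA methylation, are frequent at the starts of broadly used genes, and their number over that expected from the base composition had a median of 0.57 in the 70 regions, beside 0.69 for 3871 genes on the array and 0.42 for all 27457 regions. It was 0.63 in 9 channel genes above the median of all 3 control arrays and 0.50 in 47 above the median of none. The P2rx4 and Scn7a regions are shown because both genes were above the median on all 12 arrays and differ in this measure, P2rx4 holding the middle and Scn7a the lowest ratio of the 9 genes. The P2rx4 region (GRCr8, chr12:39523040-39523339, minus strand) holds 21 CpG pairs at a ratio of 0.63 and 66.7% G and C, and the Scn7a region (GRCr8, chr3:71846235-71846534, minus strand) holds 2 at a ratio of 0.0852 and 56.0%. Capitals mark each CpG pair.
P2rx4: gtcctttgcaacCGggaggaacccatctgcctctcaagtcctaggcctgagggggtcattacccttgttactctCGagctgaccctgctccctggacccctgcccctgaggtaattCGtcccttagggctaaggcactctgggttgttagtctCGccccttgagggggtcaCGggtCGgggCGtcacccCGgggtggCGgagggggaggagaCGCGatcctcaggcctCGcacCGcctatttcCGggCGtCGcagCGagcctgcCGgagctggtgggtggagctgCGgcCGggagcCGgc
Scn7a: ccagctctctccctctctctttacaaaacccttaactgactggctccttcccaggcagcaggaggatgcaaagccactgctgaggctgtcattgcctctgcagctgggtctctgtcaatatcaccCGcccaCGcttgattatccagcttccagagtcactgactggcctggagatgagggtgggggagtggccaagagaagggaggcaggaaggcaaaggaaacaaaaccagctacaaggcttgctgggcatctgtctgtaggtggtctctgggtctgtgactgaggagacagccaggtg

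A match to the interferon-gamma activated site, TTCNNNGAA on either strand, lay in 6 of the 70 regions (8.57%), beside 8.68% of all regions. A match of letters is not a bound site, and these windows cover only the bases next to the start.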

How the data were processed

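RNA of 12 rat mixed glial cultures was hybridised to 12 single-colour oligonucleotide arrays. The deposited intensity values are 1 signal per probe set and array, computed by the authors with dChip from the scanner images, and any further normalization is not given in the sources used here. The 59 control probe sets were left out, leaving 8740. Signals were floored at 0.1 (4 values) and put on a log2 scale. As deposited, 202 to 251 probe sets per array of experiments 1 and 2 held a signal of exactly 1. Changes were tested with limma 3.58.1 in R 4.3.3 (lmFit and eBayes with a variance trend), with all 12 arrays, the mixture and the experiment as terms and Benjamini-Hochberg adjustment over 8740 probe sets at 0.05. The experiment is the code that the titles share. Deviations of arrays from their group means correlated at 0.44 to 0.71 within an experiment and at -0.62 to 0.36 between experiments. On simulated data with the same arrays the fit was tested before use. No scaling between arrays was applied, and values with each array centred on its median stand beside the group results. The number of arrays limits the precision, the error terms are SE of the fit or SD over arrays, and the sources do not say how far the cultures of an experiment shared animals.

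Symbols come from the platform annotation, with 7006 probe sets of 1 symbol, 308 of several (0 with a channel) and 1426 of none, and all 93 channel genes matched RefSeq by gene ID. Named were the brightest gene of each subfamily, the 5 largest changes each way per mixture among the 18 brighter members that kept their sign in 3 of 3 experiments, members with an unadjusted p under 0.01, and a list of glial channels, 23 of 30 of them measured. Other genes were named after their values were seen. Members and lists were chosen with earlier results of these data known. Alternatives were centring, quantile normalization, an offset of 16, leaving out dim probe sets, no block, no variance trend, every probe set, the screening criteria of the methods, and leaving out each experiment or array, with Python 3.11.15 and scipy 1.17.1 for the summaries.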

Additional observations from a re-analysis of the deposited data

How the results depend on the processing

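Limma called 0 channel genes in each of the 6 comparisons and 0 in each of the 114 counts made for them under alternative settings, among them no replicate block, which also gave 0 in every comparison, and the lowest adjusted p over these counts was 0.0846. The screening criteria of the methods gave 2 (Th1), 6 (M/M) and 4 (Th2) genes against control and 1 (M/M against Th1), 2 (Th2 against Th1) and 1 (M/M against Th2) between mixtures. The median change of channel genes with M/M cytokines, 0.32, was -0.11 with arrays centred, -0.047 with quantile normalization, and -0.22 and -0.17 with arrays centred and replicate 1 or 3 left out. For Th2 cytokines, 0.11, it was -0.10, -0.13, -0.20 and -0.18 in the same order, and -0.0064 without dim probe sets, of which 18 channel genes remained. For Th1 cytokines, 0.00, it was -0.25 with arrays centred and replicate 1 left out. Leaving out 1 experiment or 1 array gave medians of -0.13 to 0.27 for Th1, 0.06 to 0.43 for M/M, 0.07 to 0.15 for Th2, 0.02 to 0.43 for M/M against Th1, -0.075 to 0.20 for Th2 against Th1 and 0.02 to 0.39 for M/M against Th2, with 0.27 and -0.075 reached without the array labelled Th1 of experiment 3, 0.06 without the array labelled M/M of experiment 3, and 0.02 without that experiment or that array. The share of channel genes above the array median, 26.2%, was 18.8% over every probe set and 2.15% for the 75th percentile, and 22.0% to 28.5% with 1 control array left out. Of 777 values of single genes under alternatives 100 had another sign, 29 of them without experiment 3, and 0 passed the threshold. Centring together with leaving out an experiment was chosen after the data were seen. The cause of these shifts was not tested.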
